A study of Mus musculus with 12 samples.

Results

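The genes for Wnt ligands, Frizzled receptors and 2 families of secreted Wnt inhibitors, the Dickkopf (Dkk) and secreted Frizzled-related (Sfrp) proteins, were followed in H9c2 cells treated with doxorubicin alone or together with a protective agent. They were chosen by name only: protein-coding genes whose symbol is a numbered Wnt or Fzd gene, Dkk1 to Dkk4, or Sfrp1 to Sfrp5. This gave 37 of the 54345 genes in the files, 19 of them Wnt genes, 10 Fzd, 4 Dkk and 4 Sfrp, among 22058 protein-coding genes.

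Wnt proteins are secreted lipid-modified ligands that bind Frizzled receptors, which span the membrane and present a cysteine-rich domain outside the cell. Together with the co-receptors Lrp5 and Lrp6 this stabilises β-catenin, which enters the nucleus and acts with TCF/LEF factors on target genes, while other Wnt-Frizzled pairs signal through the cytoskeleton or calcium without β-catenin. Sfrp proteins carry a Frizzled-like domain that captures ligands, and most Dkk proteins block the co-receptors. In the heart the pathway is known for its stage-dependent part in specification of the myocardium and for its reactivation after injury.

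The libraries form 4 groups of 3: untreated cells (Unt), doxorubicin (DOX), DOX with dexrazoxane (D_DXZ) and DOX with the nanocatalyst magnesium hexacyanoferrate (D_MgHCF), all collected 6 h into treatment. Doxorubicin is an anthracycline that poisons topoisomerase II, and dexrazoxane is an iron chelator given against its cardiac toxicity. Cells given dexrazoxane or MgHCF without DOX were not analysed here, so the effect of either agent by itself cannot be told apart from its effect in the presence of DOX. All libraries come from the wild-type line H9c2(2-1), labelled as myoblasts of Mus musculus, whereas the paper calls the cells rat. The values refer to mouse genes, and how reads of rat cells would be assigned to them is not stated. Comparisons of level between genes, and genes called not expressed, carry that limit. The doses in the sequenced cells are not given in the sources used here. Nothing states that the 3 libraries of a group came from separate cultures, so p-values measure only the spread between these libraries.

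The values are FPKM, which count fragments relative to gene length and library size and so compare genes per length. A fold change is a difference on the log2(FPKM + 1) scale, which makes changes of low genes smaller, and was tested with limma with Benjamini-Hochberg adjustment over 25044 genes. The libraries held 16626514 to 19365119 reads on genes each. The library scaling within the FPKM, set over these read totals, was 1.32 to 1.38 for Unt libraries and 1.26 to 1.43 for D_MgHCF, but 0.647 to 0.784 for DOX and 0.747 to 0.892 for D_DXZ, so comparisons across these pairs of groups depend on it. D_MgHCF replicate 3 stood apart, with correlations of 0.942 and 0.964 to the other D_MgHCF libraries against 0.984 between those. Of the muscle markers, the myoblast regulators Myod1 and Myog did not exceed 0.126 and 0.0510 FPKM in any library. Des ranged from 1.36 to 1.57 in Unt and from 0.491 to 0.668 in DOX, and Pax3 from 1.19 to 1.32 in Unt with a median of 0.353 in DOX. Mef2c was also lower in DOX, with 0.911 to 0.951 in Unt and 0.260 to 0.322 in DOX. Tnnt2 went the other way, with 0.0969 to 0.190 in Unt and 0.855 to 0.970 in DOX. Of the cardiac markers, Tbx5 was at 0 in all 12 libraries, while Gata4 had 9.66 to 10.8 FPKM in Unt, 14.2 to 25.5 in D_MgHCF, 2.17 to 4.93 in DOX and 2.36 to 3.66 in D_DXZ. In bulk RNA, fewer cells of a type and less RNA per cell cannot be told apart.

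Of the 37 genes, 32 were above 0 in at least 3 libraries and were tested. Expression, set as a mean of at least 1 FPKM in at least 1 group, was met by 11: the receptors Fzd1, Fzd2, Fzd3, Fzd4, Fzd5, Fzd7, Fzd8 and Fzd9, the ligands Wnt4 and Wnt9a, and the inhibitor Dkk3. Of these, 7 were expressed in Unt, 8 in DOX, 8 in D_DXZ and 10 in D_MgHCF. Fzd9 and Wnt9a met the limit through D_MgHCF alone. Another 21 genes were detected but not expressed. The remaining 5 were not tested, because Dkk1, Fzd10, Wnt16 and Wnt2 had reads in 1 library each and Wnt7a in 2. By mouse gene values, untreated cells held mainly RNA of the receptors. Fzd genes summed to 75.9 to 83.9 FPKM per Unt library and Wnt genes to 1.41 to 1.65.

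The 37 genes lie on 13 mouse chromosomes (GRCm38). Fzd7 (ENSMUSG00000041075) is at chr1:59482424-59486955 on the plus strand, Fzd5 (ENSMUSG00000045005) at chr1:64730558-64737751 on the minus strand, Fzd1 (ENSMUSG00000044674) at chr5:4753839-4758035 on the minus strand and Wnt9a (ENSMUSG00000000126) at chr11:59306928-59333552 on the plus strand. Fzd1, Fzd2, Fzd7, Fzd8 and Fzd9 have 1 exon in the GENCODE annotation, against 4 in Wnt9a, 5 in Wnt4 and 8 in Dkk3. The strand setting of the counting is not given in the sources used here. Fzd5 overlaps Gm38058 on the other strand and shares 619 bases with it, and Fzd3 overlaps Gm27263 and Gm9086, so their values are uncertain to that extent. The same limit holds for genes of low level that overlap a gene on the other strand. Wnt11 shares 364 bases with Gm8398, Wnt5a 235 with Gm2670 and Sfrp2 232 with Gm26771. Wnt7b shares 198 with AU022754 and Fzd6 152 with Gm26704. Wnt2b, Wnt5b and Wnt6 also overlap other genes. No stretch of at least 150 bases with at least 95% identity was shared between members of the families.

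The sequences before the start sites of Fzd7, Fzd1, Fzd5 and Wnt9a are shown because these genes carry the 3 patterns described here: Fzd7 and Fzd1 were lower in all DOX-treated groups than in Unt, Fzd5 was higher in all of them by FPKM, and Wnt9a was higher in D_MgHCF. They are mouse sequences from RefSeq (GRCm38.p6), written 5′ to 3′ on the strand of the gene, at chr1:59481897-59482146 for Fzd7, chr5:4758217-4758466 for Fzd1, chr1:64737752-64738000 for Fzd5 and chr11:59306680-59306927 for Wnt9a. Capitals mark every match, on either strand, to the GC box GGGCGG, the CCAAT box CCAAT, the TATA box TATAAA or the TCF/LEF motif ATCAAAG. Adjoining or overlapping matches run together.
Fzd7: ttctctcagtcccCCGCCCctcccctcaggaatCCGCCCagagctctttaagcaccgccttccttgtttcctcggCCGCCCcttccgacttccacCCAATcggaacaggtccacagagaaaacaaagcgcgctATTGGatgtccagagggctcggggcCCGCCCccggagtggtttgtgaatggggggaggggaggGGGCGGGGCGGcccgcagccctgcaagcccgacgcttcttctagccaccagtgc
Fzd1: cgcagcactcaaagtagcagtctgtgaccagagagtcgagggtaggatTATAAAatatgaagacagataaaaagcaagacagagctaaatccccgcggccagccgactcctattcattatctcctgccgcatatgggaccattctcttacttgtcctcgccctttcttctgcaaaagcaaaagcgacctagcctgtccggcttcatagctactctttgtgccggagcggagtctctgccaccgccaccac
Fzd5: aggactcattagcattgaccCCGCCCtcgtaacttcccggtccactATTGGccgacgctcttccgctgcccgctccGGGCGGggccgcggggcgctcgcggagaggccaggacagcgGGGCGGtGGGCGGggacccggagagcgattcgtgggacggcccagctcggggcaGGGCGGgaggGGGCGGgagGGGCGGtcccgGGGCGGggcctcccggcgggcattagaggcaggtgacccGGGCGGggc
Wnt9a: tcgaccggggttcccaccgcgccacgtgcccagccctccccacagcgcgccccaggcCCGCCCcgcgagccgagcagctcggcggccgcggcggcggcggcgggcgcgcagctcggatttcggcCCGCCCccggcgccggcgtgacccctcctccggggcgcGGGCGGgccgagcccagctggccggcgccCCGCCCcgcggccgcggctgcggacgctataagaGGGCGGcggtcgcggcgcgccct
Fzd7 has 6 GC boxes and 2 CCAAT boxes in 250 bases, Fzd5 has 9 and 1 in 249 bases, and Wnt9a has 5 GC boxes in 248 bases. Fzd1 has none of these but 1 TATA box, and its window is 51.2% G and C against 65.2% in Fzd7, 76.3% in Fzd5 and 84.3% in Wnt9a. The promoter table matched 25 of the 37 genes, 7 of them expressed. In the 250 upstream bases a GC box was found in 19 of the 25 and in 32.7% of all 32851 promoters, a CCAAT box in 10 of 25 and 33.8%, and a TATA box in 4 of 25 and 12.4%. The TCF/LEF motif was found in 3.21% of all promoters, in Wnt11 and Wnt5b among the families and in 0 of the 7 expressed genes. A gene was counted if any of its windows matched, while the percentages are shares of single promoters. Wnt11 and Wnt5b had more than 1 window each, and not all of these held the motif. A match describes these letters only.

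DOX lowered 5 Frizzled genes and raised Fzd5 and Dkk3, and the rise of Fzd5 turned negative with TPM and over the summed reads. Against Unt, 5 of the 32 tested genes were lower at an adjusted p under 0.05, all of them Frizzled genes, where 19.9% of all tested genes were lower. Only Fzd5 and Dkk3 were higher, where 18.6% of all tested genes were. D_DXZ gave the same 5 lower (18% of all tested genes) and Fzd5, Dkk3 and the low Sfrp2 higher (15.9% of all). Both comparisons share the Unt libraries. Over the 32 tested members these shares are close to or below those of all genes. Among the 11 expressed members, 45.5% were lower and 18.2% higher, in DOX and in D_DXZ alike. Of coding genes with at least 1 FPKM in a group, 36.4% were lower and 33.3% higher in DOX, and 34.7% and 28.7% in D_DXZ. Smooth muscle markers, with Acta2 by far the highest, summed to 263 to 323 FPKM in Unt, 208 to 438 in D_MgHCF, 1483 to 2033 in DOX and 1225 to 1709.7 in D_DXZ. No other smooth muscle marker exceeded 0.411 FPKM in Unt or DOX. Mesenchymal markers summed to 513 to 585 in Unt, 308 to 548 in D_MgHCF, 1542 to 1953 in DOX and 1185 to 1541 in D_DXZ. Vim, Fn1, Col1a1, Col1a2 and Col3a1 were higher in DOX than in Unt, with Vim and Fn1 the highest. Pdgfrb was lower, with 11.7 to 13.3 in Unt and 7.67 to 8.92 in DOX, as was Pdgfra, with 0.592 to 0.828 and 0.264 to 0.405. Thy1 did not exceed 0.0477 in any library. The part of these markers in the results was not tested.

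**Figure D1:**
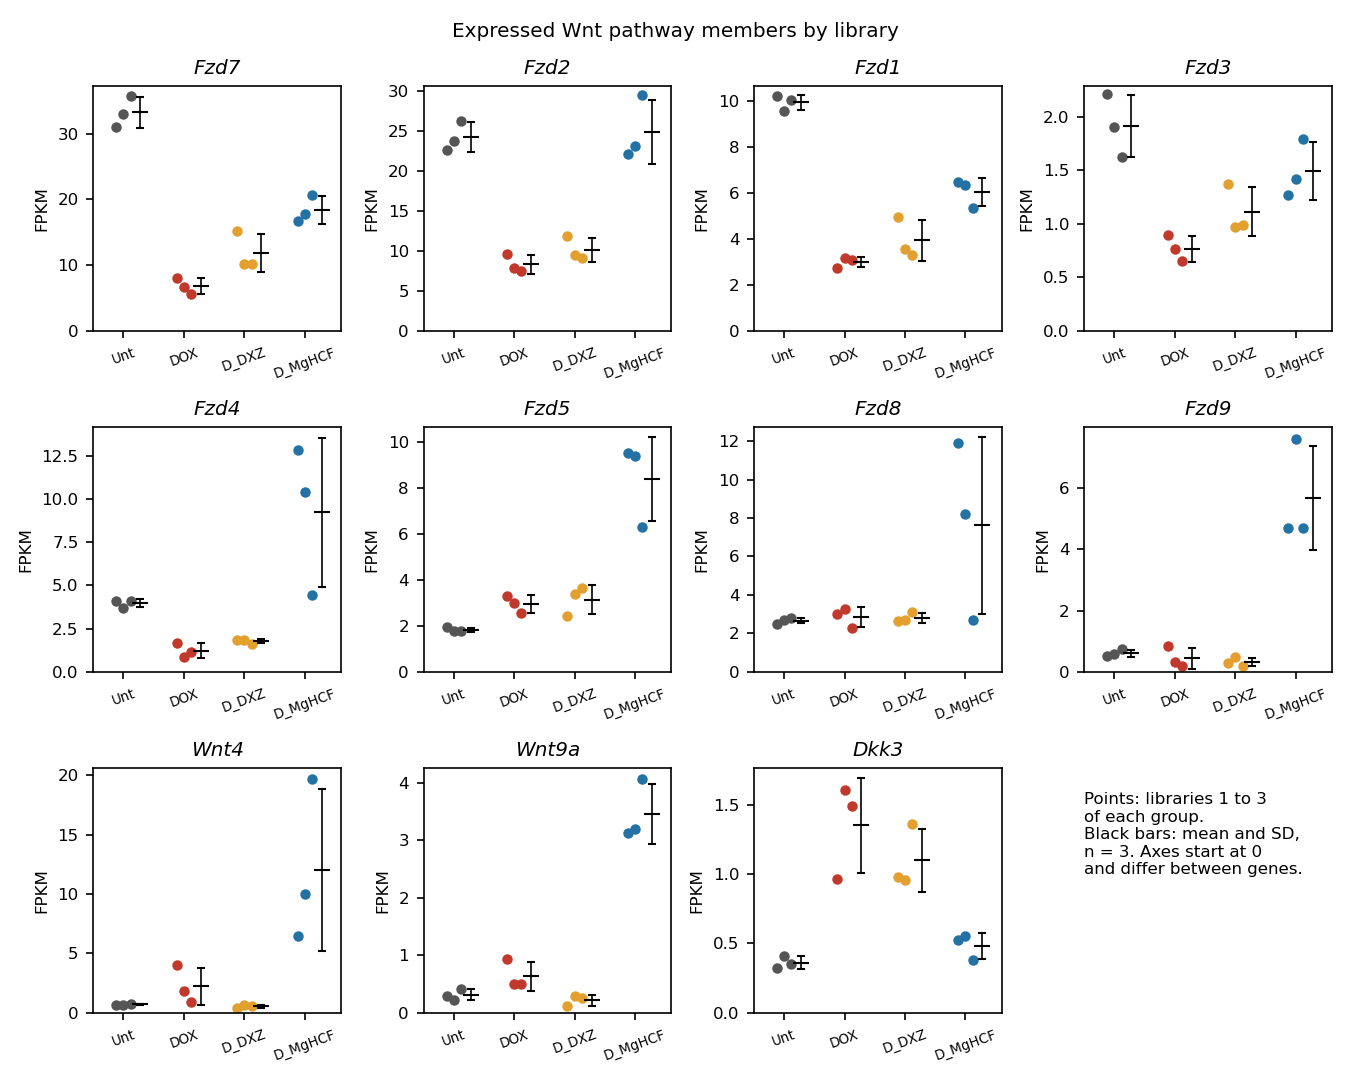
FPKM of the 11 expressed Wnt, Frizzled and Dickkopf genes in each of the 12 libraries, 1 panel per gene, with points for libraries and bars for the group mean and SD (n = 3). Fzd7, Fzd1 and Fzd2 dropped in DOX, where Fzd7 lay between 5.65 and 8.10 against 31.1 to 35.8 in Unt, and Wnt9a and Fzd9 stood above all other groups in D_MgHCF.

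Fzd7, a receptor known from stem cells and early development, was the highest member in untreated cells. It had 31.1, 33.1 and 35.8 FPKM in Unt, 8.10, 6.59 and 5.65 in DOX, 15.2, 10.2 and 10.2 in D_DXZ and 16.7, 17.8 and 20.7 in D_MgHCF. All 4 groups were separate, with DOX lowest and Unt highest. Fzd7 fell by 2.15 ± 0.16 (SE) on the log2 scale in DOX (adjusted p = 1.17e-05), to 0.203 of its Unt mean. It was 1.33 ± 0.16 higher in D_MgHCF than in DOX (adjusted p = 8.83e-05) and still 0.83 on the log2 scale below Unt (log2 fold change -0.83, adjusted p = 0.00321). Between D_DXZ and DOX the difference was 0.72 ± 0.16, which did not pass the adjustment (adjusted p = 0.245).

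Fzd2, a receptor used with and without β-catenin, fell in DOX and D_DXZ, and in D_MgHCF its values overlapped those of Unt. It had 22.6, 23.7 and 26.2 FPKM in Unt, 9.57, 7.85 and 7.41 in DOX, 11.9, 9.42 and 9.08 in D_DXZ and 22.1, 23.1 and 29.5 in D_MgHCF. DOX and D_DXZ overlapped, Unt and D_MgHCF overlapped, and the pairs were apart. Fzd2 fell by 1.45 ± 0.14 in DOX (adjusted p = 2.41e-05) and was 1.48 ± 0.14 higher in D_MgHCF than in DOX (adjusted p = 1.81e-05). The difference between D_MgHCF and Unt was 0.03 ± 0.14 (adjusted p = 0.887).

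Fzd1, a close relative of Fzd2 and Fzd7, had 10.2, 9.55 and 10.0 FPKM in Unt, 2.75, 3.16 and 3.09 in DOX, 4.94, 3.55 and 3.28 in D_DXZ and 6.45, 6.34 and 5.33 in D_MgHCF. The groups did not overlap, with D_MgHCF between Unt and the other groups. Fzd1 fell by 1.45 ± 0.13 in DOX (adjusted p = 1.73e-05), was 0.81 ± 0.13 higher in D_MgHCF than in DOX (adjusted p = 0.000446) and was lower in D_MgHCF than in Unt (log2 fold change -0.64, adjusted p = 0.00365). Fzd1 and Fzd7 were the only members lower in D_MgHCF than in Unt, 2 of 32 against 15.7% of all tested genes.

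Fzd3 and Fzd4 fell from lower levels. Fzd3, known for axon guidance and planar cell polarity, had 2.21, 1.90 and 1.62 FPKM in Unt, 0.890, 0.761 and 0.648 in DOX, 1.37, 0.965 and 0.988 in D_DXZ and 1.26, 1.42 and 1.79 in D_MgHCF. DOX lay below all other libraries, while D_MgHCF overlapped both D_DXZ and Unt. It fell by 0.72 ± 0.14 in DOX (adjusted p = 0.00223) and was 0.49 ± 0.14 higher in D_MgHCF than in DOX (adjusted p = 0.0159). That rise did not pass without DOX replicate 3 (0.44, adjusted p = 0.0593), and the fall in D_DXZ (log2 fold change -0.47, adjusted p = 0.029) was lost in 4 of 12 fits that left out 1 library. With quantile normalization the rise was 0.087 (adjusted p = 0.736), and the falls were -0.41 in DOX (adjusted p = 0.0853) and -0.21 in D_DXZ (adjusted p = 0.419).

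Fzd4, the receptor for Norrin in retinal blood vessels as well as for Wnt proteins, had 4.10, 3.71 and 4.09 FPKM in Unt, 1.69, 0.823 and 1.16 in DOX, 1.83, 1.84 and 1.62 in D_DXZ and 12.9, 10.4 and 4.45 in D_MgHCF. All D_MgHCF libraries were above Unt, replicate 3 only just. Fzd4 fell by 1.18 ± 0.29 in DOX (adjusted p = 0.00783) and was 2.12 ± 0.29 higher in D_MgHCF than in DOX (adjusted p = 0.000173). Its rise over Unt in D_MgHCF was 0.94 ± 0.29 (adjusted p = 0.0277). That call was lost in 5 of 12 fits that left out 1 library, with 0.67 (adjusted p = 0.0966) without D_MgHCF replicate 1, while without D_MgHCF replicate 3 the rise was 1.34 (adjusted p = 0.000111). The fall in D_DXZ (log2 fold change -0.85, adjusted p = 0.0465) was lost in 10 of 12, among them the fit without D_DXZ replicate 3 (-0.81, adjusted p = 0.121). With quantile normalization the falls were -0.74 in DOX (adjusted p = 0.124) and -0.47 in D_DXZ (adjusted p = 0.365).

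Fzd5 went the other way. Fzd5, a β-catenin-linked receptor known from the eye and the intestinal crypt, had 1.94, 1.77 and 1.79 FPKM in Unt, 3.32, 2.99 and 2.54 in DOX, 2.42, 3.38 and 3.63 in D_DXZ and 9.53, 9.40 and 6.29 in D_MgHCF. Every treated library was above every Unt library, and D_MgHCF was above all. The rise over Unt was 0.47 ± 0.17 in DOX (adjusted p = 0.0489), 0.54 ± 0.17 in D_DXZ (adjusted p = 0.0318) and 1.71 ± 0.17 in D_MgHCF (adjusted p = 7.14e-05). The rise in DOX rested on the library scaling: with TPM, which gives each library the same sum, it was -0.59, where the median of 13266 genes with at least 1 FPKM moved by -1.08, so that Fzd5 stood 0.49 above that median. It was also lost in 9 of 12 fits that left out 1 library, among them the fit without DOX replicate 1 (0.41, adjusted p = 0.144). The rise in D_DXZ was lost in 5 of 12, with 0.45 (adjusted p = 0.12) without D_DXZ replicate 3, and was -0.38 with TPM and -0.0038 over the summed reads.

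Fzd8 and Fzd9 were higher in D_MgHCF and did not pass the test in DOX or D_DXZ. Fzd9, known from bone and nervous tissue, had 0.503, 0.564 and 0.732 FPKM in Unt, 0.833, 0.306 and 0.188 in DOX, 0.297, 0.466 and 0.196 in D_DXZ and 4.71, 7.62 and 4.69 in D_MgHCF. The D_MgHCF libraries were far above all others, at 9.47 times the Unt mean. The rise was 2.04 ± 0.21 over Unt (adjusted p = 8.78e-05) and 2.21 ± 0.21 over DOX (adjusted p = 1.88e-05). Fzd8, which takes part in β-catenin signalling in many tissues, had 2.51, 2.67 and 2.79 FPKM in Unt, 2.99, 3.26 and 2.27 in DOX, 2.63, 2.67 and 3.11 in D_DXZ and 11.9, 8.21 and 2.72 in D_MgHCF. D_MgHCF replicate 3 was within the range of the other groups. The rise over Unt, 1.06 ± 0.36 (adjusted p = 0.0377), was 0.68 (adjusted p = 0.126) without D_MgHCF replicate 1 and 1.58 (adjusted p = 4.25e-05) without D_MgHCF replicate 3. It was lost in 10 of 12 fits that left out 1 library, and the rise over DOX, 1.00 ± 0.36 (adjusted p = 0.0385), in 11 of 12.

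With quantile normalization, Fzd7, Fzd2 and Fzd1 kept their calls in DOX against Unt, and Fzd3 and Fzd4 lost theirs. TPM moves the median gene in DOX by -1.08 on the log2 scale, so falls are given relative to it. The share of higher genes among all genes called went from 48.3% to 9.80% in DOX against Unt and from 46.8% to 8.30% in D_DXZ against Unt, while FPKM over the summed reads gave 2075 genes higher and 8303 lower in DOX, and 19.4% of the calls higher in D_DXZ. With TPM, 0 members were higher and 12 lower in DOX than in Unt. Relative to the median gene, Fzd7 then stood at -2.48, Fzd1 at -1.79, Fzd2 at -1.75, Fzd4 at -1.52 and Fzd3 at -0.94. In D_MgHCF against DOX the share of higher genes among those called was 61.0%, against 88.9% with TPM, 83.8% over the summed reads and 48.5% with quantile normalization. Against D_DXZ it was 60.7%, and 89.1%, 82.7% and 48.7% in the same order, and against Unt 60.7%, and 47.9% with quantile normalization. Relative to the median shift of 1.13 from DOX to D_MgHCF with TPM, Fzd9 stood at 2.62, Fzd4 at 2.37, Fzd2 at 1.58, Fzd7 at 1.43, Fzd5 at 1.36, Fzd8 at 1.07, Fzd1 at 0.90 and Fzd3 at 0.45, each in the direction reported with the FPKM.

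Fzd6, a planar polarity receptor, was just under the limit for expression. It ranged from 0.792 to 0.858 FPKM in Unt, 0.484 to 1.24 in D_MgHCF, 0.275 to 1.26 in DOX and 0.333 to 0.501 in D_DXZ. The groups overlapped apart from Unt and D_DXZ, and no comparison passed, with differences from -0.40 to 0.38 on the log2 scale.

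These changes altered the makeup of the receptor set, which does not depend on the scaling of a library. Fzd1, Fzd2 and Fzd7 together made up 84.1% to 85.8% of the summed Frizzled FPKM in Unt, 52.6% to 72.8% in D_MgHCF, 66.7% to 67.7% in DOX and 69.6% to 78.0% in D_DXZ. Unt stood apart from all other groups, and the widest spread was within D_MgHCF, with replicate 3 highest. Fzd7 alone went from 40.9% to 42.7% in Unt to 23.3% to 26.5% in DOX and 19.4% to 27.2% in D_MgHCF. Fzd5 went from 2.1% to 2.6% in Unt to 10.5% to 11.5% in DOX and 8.3% to 11.1% in D_MgHCF. The summed Frizzled level was 24.2 to 30.5 FPKM in DOX and 32.5 to 41.1 in D_DXZ, and in D_MgHCF it was 76.3 to 86.0, which overlapped the 75.9 to 83.9 of Unt. Within that sum, D_MgHCF had less Fzd7 and Fzd1 than Unt, and more Fzd4, Fzd5 and Fzd9. The sums, unlike the shares, depend on the library scaling, and neither was tested.

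**Figure D2:**
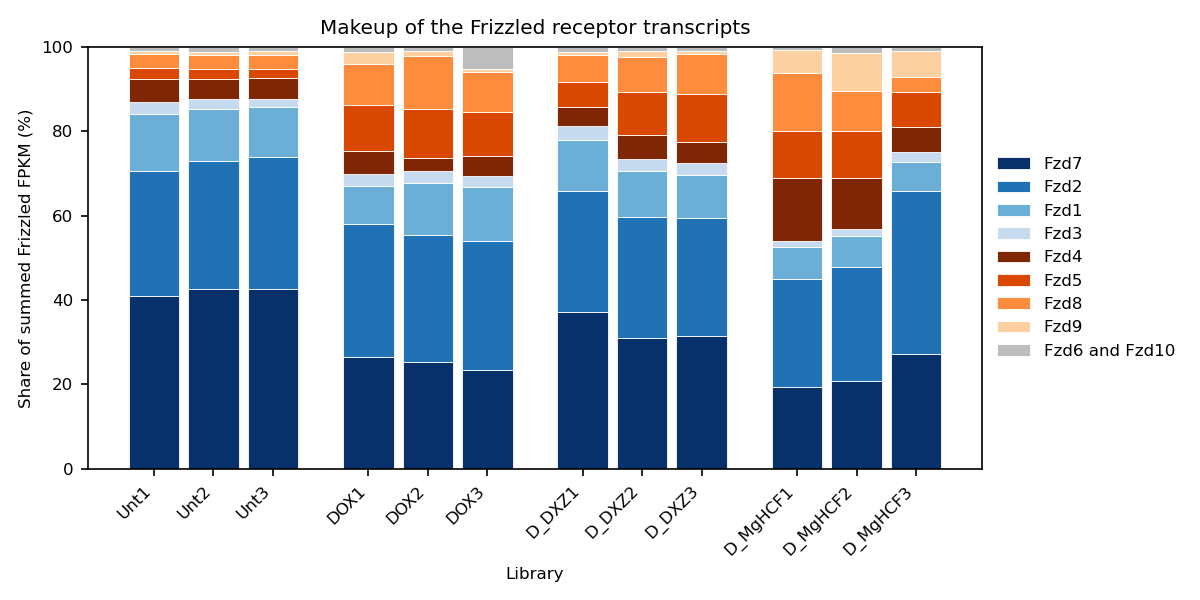
Share of each Frizzled gene in the summed Frizzled FPKM of each library, in percent, as stacked bars, 1 bar per library, with Fzd6 and Fzd10 together in grey. Fzd7, Fzd2 and Fzd1 fill at least 84.1% of every Unt bar and as little as 52.6% of a D_MgHCF bar, in which Fzd4, Fzd5, Fzd8 and Fzd9 take more of the space.

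The ligands Wnt4 and Wnt9a rose in D_MgHCF. Wnt9a, known from joint formation and the development of blood stem cells, had 0.298, 0.226 and 0.418 FPKM in Unt, 0.930, 0.492 and 0.493 in DOX, 0.112, 0.298 and 0.247 in D_DXZ and 3.13, 3.20 and 4.06 in D_MgHCF. The D_MgHCF values rested on 219, 271 and 332 reads, against 18 to 34 in Unt, and lay above all other libraries. The rise was 1.76 ± 0.14 over Unt (adjusted p = 2.91e-05), 1.45 ± 0.14 over DOX (adjusted p = 2.36e-05) and 1.87 ± 0.14 over D_DXZ (adjusted p = 1e-05). All 3 DOX libraries were above all 3 Unt libraries, but the difference of 0.31 ± 0.14 did not pass (adjusted p = 0.127).

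Wnt4, known from the kidney tubule and the female reproductive tract, was the most abundant ligand in every library. It had 0.682, 0.667 and 0.771 FPKM in Unt, 3.97, 1.78 and 0.886 in DOX, 0.369, 0.619 and 0.589 in D_DXZ and 6.47, 9.98 and 19.6 in D_MgHCF. All D_MgHCF libraries were above all others, though their highest and lowest values were far apart. The rise was 2.80 ± 0.39 over Unt (adjusted p = 0.000404) and 2.01 ± 0.39 over DOX (adjusted p = 0.00152). DOX against Unt gave 0.80 ± 0.39, which did not pass (adjusted p = 0.144), and its libraries ranged from 43 to 253 reads. Wnt4 transcripts share stretches of up to 169 bases with other genes, which the counting could have split. The summed level of all 19 Wnt genes was 13.4 to 25.5 FPKM in D_MgHCF, against 1.85 to 5.54 in DOX and 0.857 to 1.57 in D_DXZ.

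Wnt9a has a neighbour among the ligands. Wnt3a starts on the opposite strand, 16.2 kb away on chr11, and had 0 to 3 reads in every library, so a shared rise was not detectable at this depth. The other neighbours within 100 kb, Wnt6 and Wnt10a, Wnt9b and Wnt3, and Wnt10b and Wnt1, were all under 1 FPKM.

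Dkk3 was the only expressed inhibitor of the Dkk and Sfrp families. Dkk3, a divergent Dickkopf that is not known to bind the Lrp5 and Lrp6 co-receptors, had 0.319, 0.410 and 0.353 FPKM in Unt, 0.961, 1.60 and 1.49 in DOX, 0.977, 0.954 and 1.36 in D_DXZ and 0.524, 0.550 and 0.376 in D_MgHCF. DOX and D_DXZ overlapped and lay above Unt and D_MgHCF, which overlapped each other. Dkk3 rose by 0.78 ± 0.13 in DOX (adjusted p = 0.000828) and by 0.62 ± 0.13 in D_DXZ (adjusted p = 0.00443). In D_MgHCF it was below DOX (log2 fold change -0.66, adjusted p = 0.00222), and its difference from Unt was 0.12 ± 0.13 (adjusted p = 0.501). The values rested on 27 to 69 reads per library. These calls depended on the library scaling. With TPM the rises were 0.34 in DOX (adjusted p = 0.2) and 0.26 in D_DXZ (adjusted p = 0.336). The fall from DOX to D_MgHCF was -0.17 with TPM (adjusted p = 0.463), where the median gene moved by 1.13, and -0.22 over the summed reads (adjusted p = 0.123).

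**Figure D3:**
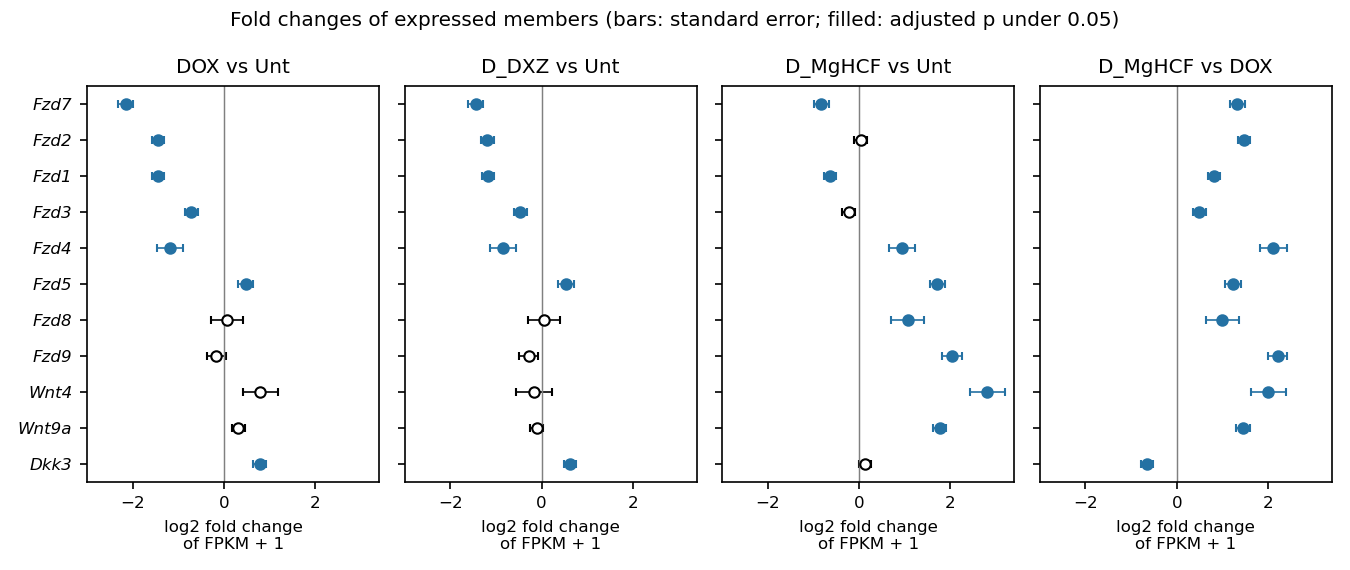
Log2 fold changes of the 11 expressed genes on the log2(FPKM + 1) scale in DOX, D_DXZ and D_MgHCF against Unt and in D_MgHCF against DOX, with bars for the standard error of the limma fit over 12 libraries and filled points for an adjusted p under 0.05. Fzd7 lies at -2.15 in DOX against Unt and at 1.33 in D_MgHCF against DOX, while Dkk3 lies on the opposite side in both.

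D_MgHCF against DOX gave 20 members higher and 1, Dkk3, lower, where 31.4% of all tested genes were higher and 20.1% lower. Among the 20 were 10 of the 11 expressed genes, where 37.9% of coding genes with at least 1 FPKM in a group were higher. Fzd9 and Wnt9a count as expressed through D_MgHCF alone, so their place in the 10 was favoured by the limit. The shared DOX libraries enter this comparison and DOX against Unt on opposite sides, so a gene that fell in DOX tends to rise here. D_MgHCF against D_DXZ gave 18 higher (29.4% of all) and 2 lower, Dkk3 and Sfrp2 (19% of all). Against Unt, a comparison without the DOX libraries, D_MgHCF had 17 members higher, with 24.3% of all tested genes higher: Fzd4, Fzd5, Fzd8, Fzd9, Wnt4, Wnt9a and 11 genes under 1 FPKM. Without D_MgHCF replicate 3 the members higher numbered 19 against Unt, 24 against DOX and 22 against D_DXZ. The 17 against Unt became 10 without Unt replicate 1 or without Unt replicate 3, and 11 without D_MgHCF replicate 1 or without D_MgHCF replicate 2. Of the 32 tested genes, 8 passed the filter on low values only with their D_MgHCF libraries, among them Wnt10a and Dkk2 of those called, so the counts cannot be read as a share of the families.

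No member differed between D_DXZ and DOX after adjustment, and 0% of all tested genes did in either direction with limma. The paper, with a negative binomial test, reports that DXZ significantly reversed some of the genes that DOX had changed. A lack of calls here therefore does not show a lack of difference. At an unadjusted p under 0.05, Fzd7 and Sfrp2 were higher (4.56% of all tested genes) and Wnt4 and Wnt9a lower (4.97% of all). Wnt9a had 19 to 47 reads in DOX and 6 to 13 in D_DXZ, and its difference of -0.42 ± 0.14 had an adjusted p of 0.428. For the strongly expressed receptors the differences were 0.26 ± 0.14 in Fzd2 and 0.29 ± 0.13 in Fzd1, both toward Unt (adjusted p = 0.599 and 0.526).

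Below the limit for expression, more of the genes had reads in D_MgHCF than in the other groups. Of all 37 members, 29 to 34 were above 0 in a D_MgHCF library and 20 to 23 in any other library. Of the protein-coding genes, 15780 to 16356 were above 0 in D_MgHCF, 13430 to 14354 in the other groups. Among coding genes under 1 FPKM in every group, 30% were higher in D_MgHCF than in Unt, as were 11 of the 21 members at that level, and among those with at least 1 FPKM in a group 24.8%. Markers of cells that the cultures should not hold were low. Endothelial markers, 0 of 5 above 1 FPKM in any library, summed to 0.293 to 1.09 FPKM in D_MgHCF and 0.0131 to 0.236 elsewhere, without overlap. Epithelial markers, also 0 of 5, summed to 0.105 to 0.824 in D_MgHCF and 0 to 0.330 elsewhere, with overlap. Their part in the result was not tested.

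The low ligands with most reads were as follows. Wnt1, the founding member of the family, had 1, 8 and 2 reads in Unt, 1, 0 and 0 in DOX, 1, 1 and 1 in D_DXZ and 35, 35 and 27 in D_MgHCF. D_MgHCF was apart from all others, and the rise over Unt was 0.57 ± 0.06 (adjusted p = 8.33e-05) at no more than 0.701 FPKM. Wnt11, known from heart development and signalling without β-catenin, had 23, 16 and 19 reads in D_MgHCF and 0 to 4 elsewhere, a rise of 0.23 ± 0.03 over Unt (adjusted p = 0.000681). Wnt7b had 28, 12 and 33 reads in D_MgHCF, 5, 2 and 1 in DOX and 0 in all Unt and D_DXZ libraries.

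Wnt5a and Wnt2b, ligands known from mesenchymal tissue, were detected in untreated cells. Wnt5a had 17, 15 and 23 reads in Unt, 4, 7 and 3 in DOX, 6, 6 and 8 in D_DXZ and 56, 19 and 26 in D_MgHCF. The rise over DOX was 0.18 ± 0.06 (adjusted p = 0.0327), and that over Unt, 0.11 ± 0.06, did not pass (adjusted p = 0.171). Wnt2b had 11, 18 and 10 reads in Unt, 4, 3 and 0 in DOX, 4, 5 and 2 in D_DXZ and 28, 23 and 22 in D_MgHCF, and was 0.15 ± 0.05 higher in D_MgHCF than in Unt (adjusted p = 0.0268). Both genes had fewer reads in DOX and D_DXZ than in every Unt library, but neither fall passed the test. Wnt10b, a ligand known from bone and fat cells, had 6 to 9 reads in Unt and 50, 28 and 14 in D_MgHCF (0.34 ± 0.11, adjusted p = 0.0286). Wnt5b and Wnt8b were also higher in D_MgHCF than in Unt, at up to 0.430 and 0.128 FPKM. Wnt10a had 3, 4 and 3 reads in D_MgHCF and 0 or 1 elsewhere, which is near the 3 reads that a count of 0 allows. Wnt3, Wnt3a, Wnt6, Wnt8a and Wnt9b stayed at or below 0.218 FPKM and passed in no comparison.

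Among the low inhibitors, Sfrp4, known from bone and the vessel wall, had 1, 2 and 5 reads in Unt, 6, 1 and 5 in DOX, 2, 4 and 1 in D_DXZ and 55, 54 and 10 in D_MgHCF. D_MgHCF replicate 3 was far nearer to the other groups than replicates 1 and 2. The rise over Unt was 0.44 ± 0.12 (adjusted p = 0.0133). Sfrp5 rose by 0.20 ± 0.05 over Unt (adjusted p = 0.00742), at up to 0.225 FPKM. Dkk2, a co-receptor ligand of the Dickkopf family, had 14, 8 and 2 reads in D_MgHCF, 4, 0 and 0 in DOX and 0 in all Unt and D_DXZ libraries. Sfrp2 had 3, 2 and 3 reads in Unt, 0, 1 and 0 in DOX, 3, 6 and 4 in D_DXZ and 3, 3 and 4 in D_MgHCF, so its calls rest on a handful of reads. Sfrp1 and Dkk4 stayed at or below 0.0311 FPKM and passed in no comparison.

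**Figure D4:**
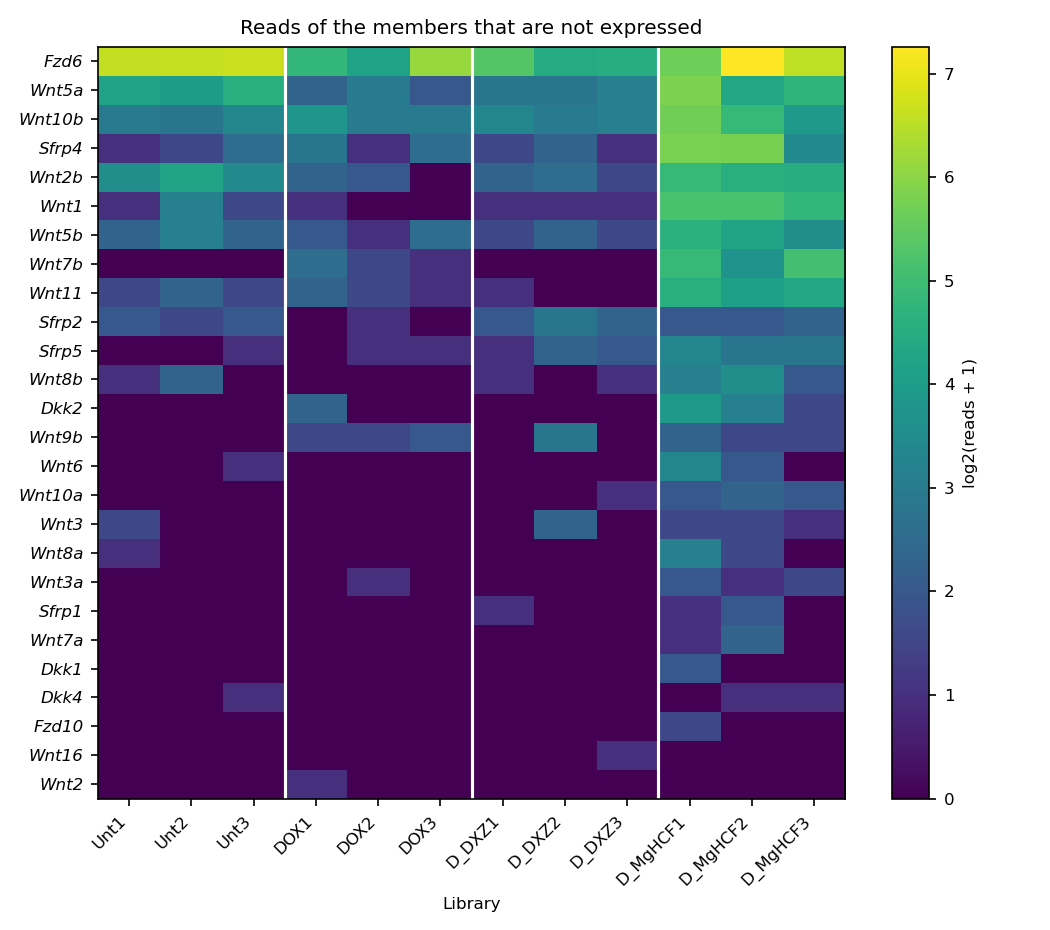
Reads of the members under 1 FPKM in every group, tested or not, as a grid of genes against the 12 libraries, with brighter cells for more reads on a log2(reads + 1) colour scale and the darkest cells at 0 reads. Wnt1 has 27 to 35 reads in the D_MgHCF libraries against 0 to 8 elsewhere, and Wnt7b 12 to 33 against 0 to 5.

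Other genes of the pathway were taken from 5 lists. In DOX against Unt, the intracellular signalling genes were mostly lower, with 16 of 28 tested lower, 2 higher and a median of -0.92 on the log2 scale against 0 over all tested genes. Axin1 and Gsk3b, both parts of the complex that marks β-catenin for destruction, were among them. Axin1 had 30.3 to 34.4 FPKM in Unt and 3.95 to 6.42 in DOX (log2 fold change -2.50 ± 0.25, adjusted p = 3.15e-05). Gsk3b had 16.4 to 17.2 and 2.02 to 3.42 (-2.36 ± 0.22, adjusted p = 2.16e-05). Of the nuclear mediators and feedback targets, 15 of 31 were lower and 6 higher, with a median of -0.23. Myc, a growth regulator and known target gene, had 62.8 to 72.1 FPKM in Unt and 3.98 to 7.42 in DOX (-3.44 ± 0.34, adjusted p = 2.7e-05).

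The genes of Wnt secretion and of extracellular inhibitors outside the 4 families had 7 of 14 higher and 1 lower in DOX, as against 4 higher and 5 lower among 15 co-receptor genes and 3 higher and 6 lower among 15 alternative receptors and planar polarity genes. Their medians were 0.33, 0 and -0.01. Of all tested genes, 18.6% were higher and 19.9% lower, and of coding genes with at least 1 FPKM in a group 33.3% and 36.4%, so the counts of the co-receptors and alternative receptors lie near these shares. Sulf2, which trims heparan sulphate that holds Wnt proteins, had 14.0 to 15.7 FPKM in Unt and 52.3 to 63.0 in DOX (1.90 ± 0.16, adjusted p = 1.46e-05). Ccnd1, a cell cycle gene often used as a β-catenin target, had 42.5 to 57.4 FPKM in Unt, 195 to 266 in DOX and 15.7 to 24.8 in D_MgHCF. It rose by 2.19 ± 0.18 in DOX (adjusted p = 1.41e-05) and was 3.55 lower on the log2 scale in D_MgHCF than in DOX (log2 fold change -3.55, adjusted p = 2.39e-06). Aes, a corepressor of TCF factors, had 64.3 to 71.2 FPKM in Unt and 261 to 340 in DOX (2.16 ± 0.22, adjusted p = 3.13e-05).

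In D_MgHCF against DOX the intracellular genes had 18 of 28 higher and 2 lower (median 0.86 against 0.07 over all tested genes), the nuclear genes 19 of 31 higher and 4 lower (median 0.78), the alternative receptors 11 of 15 higher and 3 lower (median 0.17), and the co-receptors 7 of 15 higher and 3 lower (median 0.08). The list of secretion, inhibitor and other extracellular genes had 2 of 14 higher and 6 lower (median -0.03), which turned to 8 higher and 2 lower with TPM. Of all tested genes, 31.4% were higher and 20.1% lower, and of coding genes with at least 1 FPKM 37.9% and 36.7%, and the co-receptor count lies near these shares. Fosl1, an AP-1 factor, had 3.06 to 7.37 FPKM in DOX and 18.3 to 53.2 in D_MgHCF (2.78 ± 0.38, adjusted p = 0.000155). Frat2, an inhibitor of Gsk3, had 0.960 to 1.55 and 5.71 to 18.1 (2.55 ± 0.35, adjusted p = 0.00018). Pygo2, a coactivator of β-catenin, had 3.90 to 8.94 and 29.0 to 39.0 (2.31 ± 0.22, adjusted p = 1.86e-05). Ryk, a receptor tyrosine kinase-like protein that binds Wnt, had 104 to 146 and 22.2 to 34.9 (-2.16 ± 0.17, adjusted p = 7.93e-06). Ctbp1, a corepressor, had 83.8 to 106 and 16.0 to 25.8 (-2.28 ± 0.17, adjusted p = 5.18e-06).

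**Figure D5:**
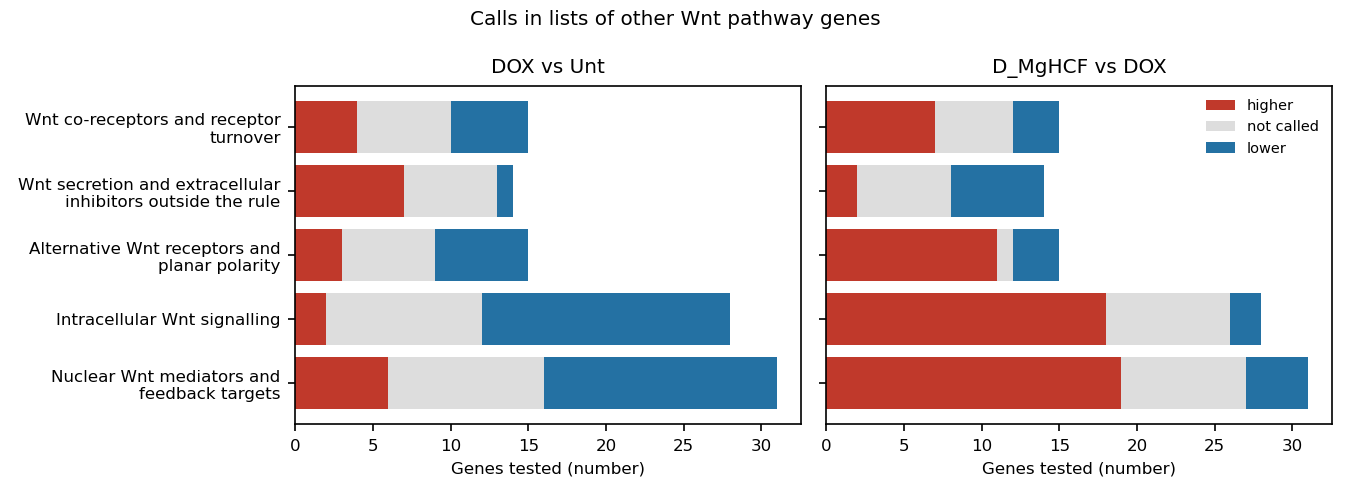
Number of tested genes that were higher (red), not called (grey) or lower (blue) at an adjusted p under 0.05, as stacked bars, in the 5 lists of other pathway genes, in DOX against Unt and in D_MgHCF against DOX. Intracellular genes have 16 lower and 2 higher in the first comparison and 2 lower and 18 higher in the second, which share the DOX libraries.

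Axin2, the feedback gene most used as a readout of β-catenin signalling, was low. It ranged from 0.0303 to 0.0966 FPKM in Unt, 0.173 to 0.299 in DOX and 0.135 to 0.422 in D_DXZ, and had 3.03, 1.66 and 0.348 in D_MgHCF replicates 1, 2 and 3. All DOX libraries were above all Unt libraries, while D_MgHCF replicate 3 was within the range of D_DXZ. The rise in D_MgHCF was 1.20 ± 0.30 over Unt (adjusted p = 0.0111) and 0.97 ± 0.30 over DOX (adjusted p = 0.0212), and DOX against Unt gave 0.22 ± 0.30 (adjusted p = 0.688). In fits of only the 2 groups compared, the rise over Unt in D_MgHCF did not pass (adjusted p = 0.0735), nor that over DOX (adjusted p = 0.106), while the difference between DOX and Unt passed (0.22, adjusted p = 0.0131). Against DOX the rise was lost in 4 of 12 fits that left out 1 library. It was 0.61 (adjusted p = 0.0566) without D_MgHCF replicate 1 and 1.40 without D_MgHCF replicate 3. D_MgHCF replicate 1 was the highest and replicate 3 the lowest of the group in Axin2, Fzd4 and Fzd8, while in Wnt4 replicate 3 was the highest.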

How the data were processed

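The data are mRNA sequencing of 12 libraries of H9c2 cells, 3 per group, with paired reads of 150 bp. As deposited by the authors, each library has an FPKM value for 54345 genes under mouse Ensembl identifiers. The submitters' processing notes name HISAT2 2.0.5 and GRCm38/mm10; the counting program, its strand setting and the annotation release are not given in the sources used here. The product of FPKM and length moved in equal steps within a library, which returned 100% of the values to whole reads (within 0.05 of a read). A count of 0 allows up to 3 reads; this limit covers counting error only.

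Groups were taken from the labels. Differences were tested on log2(FPKM + 1) in limma (version 3.58.1, R 4.3.3), where the 4 groups shared 1 model with a trended prior and without covariates, for 6 comparisons, over 25044 genes above 0 in at least 3 libraries. A gene was called at a Benjamini-Hochberg adjusted p under 0.05 over all genes tested. The script was tested on simulated data. The study used a test based on the negative binomial distribution, which was not run here. The deposited unit is FPKM, and the recovered reads were tested with voom as an alternative.

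The members, the lists of other pathway genes and the markers were chosen with earlier results of these data known. Every member was accounted for. Other pathway genes were named if expressed and among the 3 largest rises or falls in DOX against Unt or D_MgHCF against DOX, and Axin2 in any case. Of the 18 genes listed for secretion and inhibitors, 16 were found by symbol. The markers listed were 12 of muscle (4 above 1 FPKM in any library), 8 cardiac (1), 8 mesenchymal (6), 4 of smooth muscle (2), and 5 each of endothelium (0), epithelium (0) and leukocytes (1). The leukocyte markers summed to 0.888 to 1.11 FPKM in Unt, 2.02 to 4.81 in D_MgHCF, 2.75 to 3.54 in DOX and 3.81 to 4.29 in D_DXZ, with Cd68 the only one above 1 FPKM; their part in the results was not tested.

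BLAST+ 2.17.0 was run against the transcripts of GENCODE M21 to find stretches of 150 bases or more at 95% identity or more. Promoters of RefSeq were searched for exact motifs on both strands in the 250 upstream bases. Alternatives were no filter, a filter at 1 FPKM, a pseudocount of 0.1, a 2-fold minimum, unadjusted p and fits to only 2 groups. Further ones were a replicate block, TPM, quantile normalization, expression limits of 0.5 and 2, and each library left out. Chosen after seeing the data were voom on the recovered reads, FPKM over the summed reads, and the repeat of the lists and other pathway genes under each alternative.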

Additional observations from a re-analysis of the deposited data

How the results depend on the processing

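Over the expressed genes and the named pathway genes, 1860 alternative values gave the call and direction reported in 1722, lost the call in 123, gained one in 9 and reversed in 6. The reversals were Fzd5 in DOX against Unt with TPM (-0.59) and over summed reads (-0.18), Fzd5 in D_DXZ against Unt with TPM (-0.38) and over summed reads (-0.0038), and Fzd8 with TPM in DOX (-1.13) and D_DXZ (-0.99) against Unt; TPM moved the median gene by -1.08 and -1.03 there. Member counts changed by over 1.5 times as follows. In DOX against Unt, 2 higher became 1 without a filter, 0 with a 2-fold minimum, 1 with the replicate block, 4 with the 2 groups alone, 0 with TPM, 4 with voom and 1 over summed reads, and 5 lower became 12 with TPM. In D_DXZ against Unt, 3 higher became 1 without a filter, 0 with a 2-fold minimum, 0 with TPM and 1 over summed reads, and 5 lower became 3 with a 2-fold minimum, 10 with TPM and 3 with quantile normalization. In D_MgHCF against Unt, 17 higher became 6 at FPKM of at least 1, 8 without a filter, 5 with a 2-fold minimum, 9 with the 2 groups alone and 9 with quantile normalization, and 2 lower became 0 with a 2-fold minimum. In D_MgHCF against DOX, 20 higher became 10 at FPKM of at least 1, 7 with a 2-fold minimum and 9 with quantile normalization, and 1 lower became 0 with a 2-fold minimum, TPM or summed reads. In D_MgHCF against D_DXZ, 18 higher became 9 at FPKM of at least 1, 7 with a 2-fold minimum, 10 with the 2 groups alone and 10 with quantile normalization, and 2 lower became 1 with a pseudocount of 0.1, the filter, no filter, the block or voom, and 0 with a 2-fold minimum, the 2 groups alone, TPM or summed reads. In D_DXZ against DOX, 0 in either direction became 2 and 2 at an unadjusted p. With 1 library left out, members higher than in Unt numbered 10 to 19 in D_MgHCF, 1 to 2 in DOX and 1 to 4 in D_DXZ, and those higher numbered 16 to 24 in D_MgHCF against DOX and 15 to 22 against D_DXZ, and members lower 3 to 5 in D_DXZ against Unt and 1 to 2 in D_MgHCF against D_DXZ. The cause of these changes was not tested. The filter at FPKM of at least 1 leaves fewer genes that can be called.

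For the lists of other genes in DOX against Unt, co-receptors higher (4) became 0 with TPM and summed reads and lower (5) 3 with a 2-fold minimum. In the secretion list, with its inhibitors and other extracellular genes, those higher (7) became 3 with TPM and 4 over summed reads. Those lower (1) became 3 with TPM. Alternative receptors higher (3) became 5 with the 2 groups alone and 0 with TPM and lower (6) 3 with the filter or a 2-fold minimum. Intracellular genes higher (2) became 4 with the 2 groups alone, 0 with TPM and 1 with quantile normalization. Nuclear genes higher (6) became 3 with TPM and lower (15) 9 with a 2-fold minimum or quantile normalization. In D_MgHCF against DOX, co-receptors higher (7) became 4 with the filter, 3 with a 2-fold minimum and 11 with TPM and lower (3) 1 with TPM. Secretion genes higher (2) became 0 with the filter, a 2-fold minimum or the 2 groups alone, 1 without a filter or with quantile normalization, 8 with TPM, 5 over summed reads and 1 to 3 with 1 library left out, and lower (6) 3 with a 2-fold minimum, 2 with TPM and 3 over summed reads. Alternative receptors higher (11) became 3 with the filter, 1 with a 2-fold minimum, 7 with the 2 groups alone and 3 with quantile normalization, and lower (3) 1 with TPM, quantile normalization or summed reads. Nuclear genes higher (19) became 11 with a 2-fold minimum.

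Deviations of samples with the same replicate number had correlations from -0.314 to 0.306 in 18 pairs. The 2 over 0.1 were both DOX with D_DXZ, at 0.306 in replicate 1 and 0.220 in replicate 3. Samples with different numbers were not compared in this way, so whether the numbers pair samples cannot be told. With the replicate block, Fzd5 lost its call in DOX (adjusted p = 0.0714) and in D_DXZ (adjusted p = 0.0502) against Unt. Over all genes, voom on the recovered reads called 5277 higher and 4925 lower in DOX than in Unt, against 4649 and 4973 here. Median-ratio scaling was not among the alternatives fitted. Depth limits the genes under 1 FPKM, where 3 reads are the limit that a count of 0 allows.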
